A study of Mus musculus with 3 samples.

Results

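Id1, Id2, Id3 and Id4 encode the 4 Id (inhibitor of DNA binding) proteins, and they were read here as 4 genes of the 27998 in a single-cell count matrix of mouse nephron progenitors. Kidneys of Six2GFP+ mouse embryos at E14.5 (embryonic day), from many litters, were pooled into 3 tubes. Live GFP+ cells were sorted from each tube and run as 3 droplet libraries with Chromium kit version 2. The labels put all 3 libraries in 1 group with no treatment. They do not say how GFP is placed at Six2. The matrix tells the libraries apart by the suffix of the cell barcode, and the sources used here do not say which suffix belongs to which tube, so the libraries are called 1, 2 and 3 by suffix.

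The matrix held 7924 barcodes, of which 7898 had 1000 or more genes with a UMI and no more than 10% of their UMIs from mitochondrial genes. Their library totals ran from 35268524 to 50894264 unique molecular identifiers (UMIs, each a counted RNA molecule), with medians of 11915 to 15913.5 UMIs per cell. A set of 22 barcode sequences occurred in 2 libraries, and none in all 3. Every comparison below is between groups of cells inside these libraries. The replicates are tubes of pooled embryos, so no p-value measures the spread between animals. Where the library is a block in the fit, a p-value measures how far the differences between groups vary from tube to tube. The spread of levels between tubes is then taken out.

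Six2 is the transcription factor that keeps nephron progenitors undifferentiated, Wnt4 is the signal that marks cells committing to a nephron, and Lhx1 is a transcription factor of the early nephron that follows. Cells were grouped by raw UMIs of these 3 genes. The Six2 group had Six2 without Wnt4 or Lhx1 and held 6011 cells (2173, 2157 and 1681 in libraries 1, 2 and 3). The Wnt4 group had Wnt4 without Lhx1 and held 413 cells (200, 103 and 110). The Lhx1 group had at least 1 Lhx1 UMI and held 79 cells (31, 29 and 19). A further 1395 cells had none of the 3 markers. Of the Lhx1 cells, 36 also had Six2 without Wnt4 and so met the rule of the Six2 group too, and they were counted with Lhx1. In the Wnt4 group 319 cells still had Six2, and 281 rested on 1 Wnt4 UMI. In the Lhx1 group 47 rested on 1 Lhx1 UMI.

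Id proteins are helix-loop-helix proteins without the basic region that contacts DNA. They pair with E proteins, the widely expressed helix-loop-helix factors, and so hold them away from the tissue-specific basic helix-loop-helix (bHLH) factors and their DNA sites. Their genes are classic early targets of bone morphogenetic proteins (BMPs), which act through receptor kinases and Smad proteins. In many tissues Id proteins are known for holding progenitor cells undifferentiated and in cycle.

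The 4 genes lie on different chromosomes (GENCODE M21 on GRCm38, the assembly of mm10). All are protein coding. Id1 (ENSMUSG00000042745) spans 152736251 to 152737410 of chromosome 2 on the plus strand, and Id2 (ENSMUSG00000020644) spans 25093799 to 25097140 of chromosome 12 on the minus strand. Id3 (ENSMUSG00000007872) spans 136143497 to 136145755 of chromosome 4 on the plus strand, and Id4 (ENSMUSG00000021379) spans 48261228 to 48266026 of chromosome 13 on the plus strand. Their transcripts shared no stretch of 31 bases with each other, so reads of one Id gene could not be split with another over such a stretch. With other genes, Id2 shared 39 of its 2433 such stretches (Gm6175, a symbol absent from the matrix). Id4 shared 2 of 3819 (Sox5 and Vmn1r59). Id4 overlaps the antisense gene A330033J07Rik and Gm49291, a non-coding RNA gene also on the minus strand. The sources used here do not say whether the counting used strand. A330033J07Rik had 7 UMIs in all cells kept, against 555 for Id4, and Gm49291 is absent from the matrix.

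Sequence upstream of the RefSeq start (GRCm38.p6) was matched for 3 of the 4 genes, Id2, Id3 and Id4. The window of Id4, chr13:48260866-48261115 on the plus strand, is printed because Id4 had the largest fitted difference of the 4 between the Wnt4 and Six2 groups and because no annotated exon overlaps the window. It runs 5′ to 3′ up to the base before the start, and capitals mark the searched motifs found.

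Id4: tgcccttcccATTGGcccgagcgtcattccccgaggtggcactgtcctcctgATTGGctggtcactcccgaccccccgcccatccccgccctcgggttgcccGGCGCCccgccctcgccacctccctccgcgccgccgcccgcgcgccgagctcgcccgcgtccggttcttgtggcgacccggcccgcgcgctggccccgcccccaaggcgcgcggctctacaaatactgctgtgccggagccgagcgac

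Of the motifs searched on both strands, the window holds GGCGCC, the GC-rich core known as a site of BMP Smads, 1 time and the CCAAT box (read as ATTGG on this strand) 2 times. It holds no TATAAA and no CACGTG (the E-box of Myc proteins). The Id2 window also holds GGCGCC 1 time and CCAAT 3 times, and the Id3 window holds none of the 4 motifs. Unlike the Id4 window, these windows each overlap 1 annotated exon. Both lie inside the GENCODE spans of their genes given above, so their motifs are not comparable with those of Id4. GGCGCC occurs in 9.59% and CCAAT in 33.8% of 32851 RefSeq windows of the same 250 bases, TATAAA in 12.4% and CACGTG in 6.02%. No matches overlap in the printed window, and a match is a description of the letters only.

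All 4 Id genes were higher in Wnt4 cells than in Six2 cells, in each of the 3 libraries. Id2 stood highest in the Wnt4 group and lower in both other groups, Id1 had its highest mean in the Lhx1 group, and Id3 and Id4 were at like levels in the Wnt4 and Lhx1 groups. Levels are in CPM, the UMIs of a gene in a group of cells of a library scaled to a common total of all UMIs of that group. The kit counts transcript ends, so CPM is not scaled by transcript length and levels are compared within a gene only.

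Id2 was at 226, 237 and 245 CPM in the Six2 group of libraries 1, 2 and 3 (236 ± 9.47, SD, n = 3). In the Wnt4 group it was at 543, 616 and 705 CPM (621 ± 81.2, n = 3), and in the Lhx1 group at 381, 318 and 395 CPM (365 ± 41.1, n = 3). The 3 groups did not overlap in any library, and their order from low to high was Six2, Lhx1 and Wnt4 in all of them. The Wnt4 group was 2.40, 2.60 and 2.88 times the Six2 group. In edgeR's quasi-likelihood test over the 9 sums, with the library as a block and Benjamini-Hochberg adjustment over 10240 genes, this was a log2 difference of 1.38 (SE 0.052, adjusted p = 1.19e-14). Against the Wnt4 group the Lhx1 group was lower by -0.72 on the log2 scale (SE 0.080, edgeR adjusted p = 3.21e-06), and against the Six2 group it was higher by 0.65 (SE 0.082, adjusted p = 9.61e-06).

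Id1 was at 69.1, 89.1 and 81.6 CPM in the Six2 group (79.9 ± 10.1, n = 3) and at 126, 158 and 208 CPM in the Wnt4 group (164 ± 41.2, n = 3). In the Lhx1 group it was at 232, 179 and 241 CPM (217 ± 33.5, n = 3). Each Wnt4 value lay above all Six2 values, while the Wnt4 and Lhx1 values overlapped across libraries. Within every library the order was Six2, Wnt4, Lhx1. Wnt4 cells exceeded Six2 cells by 1.02 on the log2 scale (SE 0.087, edgeR adjusted p = 3.27e-08), and Lhx1 cells exceeded Six2 cells by 1.51 (SE 0.14, adjusted p = 9.75e-08). The step from the Wnt4 to the Lhx1 group was 0.49 (SE 0.14, edgeR adjusted p = 0.109) and missed the threshold of 0.05. In that step library 1 was at 1.84 times the Wnt4 level and libraries 2 and 3 were at 1.13 and 1.16 times. Without library 1 the step was 0.19, without library 2 it was 0.57 (adjusted p = 0.0177) and without library 3 it was 0.64 (adjusted p = 0.0356).

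Id3 was at 423, 520 and 468 CPM in the Six2 group (470 ± 48.8, n = 3), at 577, 663 and 756 CPM in the Wnt4 group (665 ± 89.8, n = 3) and at 578, 524 and 752 CPM in the Lhx1 group (618 ± 119, n = 3). The lowest Wnt4 value lay above the highest Six2 value, and the Wnt4 and Lhx1 values overlapped. Its Wnt4 against Six2 difference was the smallest of the 4, at 0.49 on the log2 scale (SE 0.060, edgeR adjusted p = 4.62e-06). The Lhx1 group differed from the Six2 group by 0.40 (SE 0.081, adjusted p = 0.00275), with library 2 at 1.01 times the Six2 level. Without library 1 (0.37, adjusted p = 0.243) or library 3 (0.27, adjusted p = 0.101) it did not pass. From Wnt4 to Lhx1 the value was -0.09 (SE 0.084, edgeR adjusted p = 0.868).

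Id4 was sparse, with 355 UMIs in the whole Six2 group, 116 in the Wnt4 group and 23 in the Lhx1 group. It was at 2.36, 4.24 and 5.12 CPM in the Six2 group (3.91 ± 1.41, n = 3) and at 8.18, 17.2 and 22.7 CPM in the Wnt4 group (16.03 ± 7.34, n = 3). In the Lhx1 group it was at 7.91, 16.04 and 26.5 CPM (16.8 ± 9.33, n = 3). Library 1 was lowest in all 3 groups, and within each library the Wnt4 group was 3.47, 4.06 and 4.44 times the Six2 group. The log2 difference was 1.99 (SE 0.19, edgeR adjusted p = 1.96e-07) from Six2 to Wnt4, 0.06 (SE 0.34, adjusted p = 0.99) from Wnt4 to Lhx1 and 2.06 (SE 0.38, adjusted p = 0.00102) from Six2 to Lhx1. The last was 1.83 without library 3 (adjusted p = 0.0803), which held 11 of the 23 Id4 UMIs of the Lhx1 group.

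**Figure D1:**
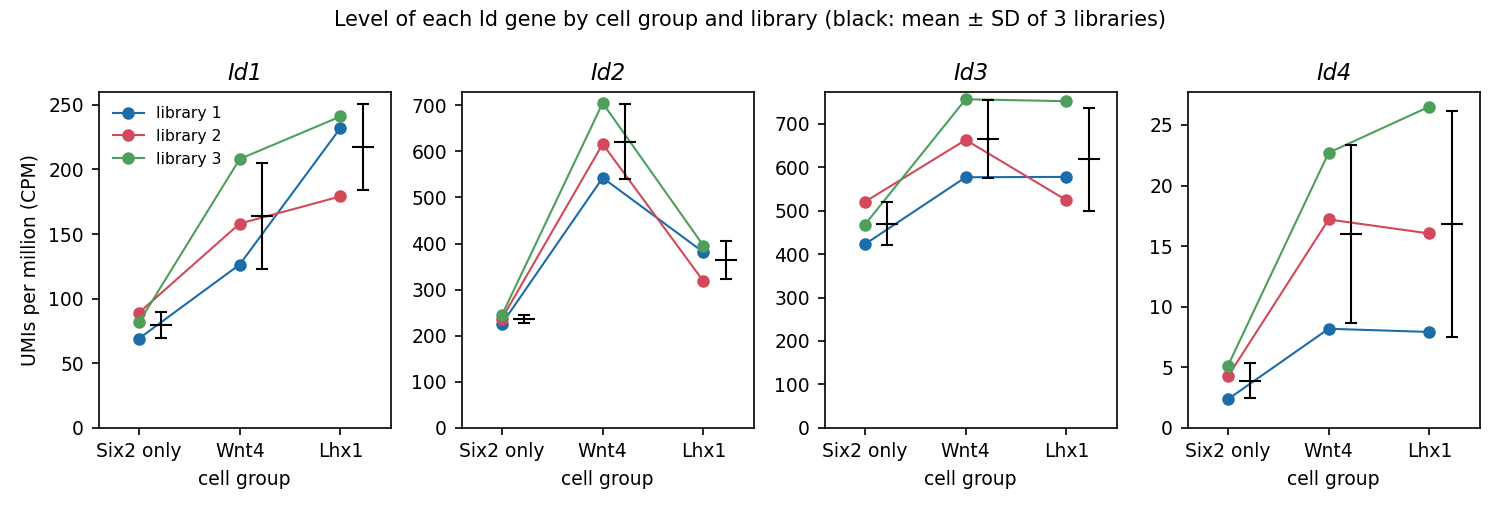
Level of each Id gene in CPM (vertical axis, from 0, a separate scale per gene) in the Six2, Wnt4 and Lhx1 groups of cells, with 1 coloured line per library and the mean ± SD of the 3 libraries in black. Each line rises from the Six2 to the Wnt4 group in all 4 panels, and Id2 alone drops in every library from the Wnt4 group (621 CPM) to the Lhx1 group (365 CPM).

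Between the Wnt4 and Six2 groups 4 of 4 Id genes passed the test, all higher, where 10.2% of the 10240 genes tested passed in either direction, 4.86% as higher and 5.34% as lower. By size of increase Id4 ranked 23, Id2 44, Id1 81 and Id3 308 of the 10240. Between the Lhx1 and Wnt4 groups 1 of 4 passed, Id2 as lower, where 1.15% of all genes passed, 0.996% as higher and 0.156% as lower. Between the Lhx1 and Six2 groups 4 of 4 passed as higher, where 5.17% of all genes passed, 3.31% as higher and 1.86% as lower. The median log2 difference over all genes tested was -0.01 from Six2 to Wnt4. The 3 comparisons share their groups, so they are not separate support for one another. The 4 genes were chosen with earlier results of these data known, so the counts passed and the ranks are not independent evidence. Without the library block the differences kept nearly the same size, but for Wnt4 against Six2 the edgeR adjusted p was 0.0077 for Id2, 0.0598 for Id1, 0.332 for Id3 and 0.0606 for Id4, and the fall of Id2 from Wnt4 to Lhx1 had an adjusted p of 0.143.

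Cells with Wnt4 were also richer in transcripts of proliferation. The share of cells with at least 3 UMIs summed over Mki67, Top2a, Ccnb1, Cdk1, Cenpf and Birc5 was 44.2% to 50.1% in the Six2 group, 66.0% to 76.4% in the Wnt4 group and 44.8% to 78.9% in the Lhx1 group. Among cells with at most 2 of these UMIs, a comparison chosen after seeing the data, Id2 was still higher in Wnt4 than in Six2 cells by 1.08 on the log2 scale. There Id1 differed by 0.45 (edgeR adjusted p = 0.0997) and Id3 by 0.21 (adjusted p = 0.176), on 116 Wnt4 cells, and Id4 had too few counts to be tested. Within the Wnt4 group, cells with none of these UMIs had Id1 at 103 ± 54.8 CPM against 179 ± 44.3 CPM in cells with 3 or more, Id2 at 397 ± 121 against 664 ± 83.8 CPM and Id3 at 626 ± 155 against 692 ± 98.9 CPM (n = 3). The cells with none were 18, 14 and 7 in libraries 1, 2 and 3, with a median of 13040 UMIs against 20301, and in library 2 Id1 was at 165 against 171 CPM. In the Six2 group the same split, at medians of 12143.5 and 18100 UMIs, gave 72.6 ± 9.31 against 84.3 ± 9.95 CPM for Id1, 222 ± 14.2 against 253 ± 8.99 for Id2 and 498 ± 19.9 against 457 ± 45.2 for Id3. The parts of proliferation and depth in the Id differences were not tested beyond these values.

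The groups also differed in depth, with medians of 14742, 18385 and 16238 UMIs per cell in the Six2, Wnt4 and Lhx1 groups. When every cell was cut at random to 5000 UMIs before grouping and counting, the Wnt4 against Six2 difference still passed for Id1, Id2 and Id3. Among cells of 10000 to 20000 UMIs, Id2 in the Lhx1 group no longer differed from the Six2 group (log2 -0.03, edgeR adjusted p = 0.985), on 41 Lhx1 cells. The same setting gave -1.33 for Id2 from Wnt4 to Lhx1.

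From the Six2 to the Wnt4 group, detection of Id1, Id2 and Id3 followed the levels. After cutting each cell to 5000 UMIs, Id2 was found in 48.9%, 50.2% and 50.1% of Six2 cells in libraries 1, 2 and 3 (49.7% ± 0.762, n = 3). It was found in 74.2%, 76.7% and 80.9% of Wnt4 cells (77.3% ± 3.37) and in 58.1%, 53.6% and 73.7% of Lhx1 cells (61.8% ± 10.6). The Six2 and Wnt4 shares did not overlap. Uncut, the shares were 71.4% ± 2.30, 91.0% ± 5.09 and 81.2% ± 7.78.

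Id1 was found in 22.8% ± 1.29 of Six2 cells, 40.0% ± 11.1 of Wnt4 cells and 54.8% ± 2.90 of Lhx1 cells at 5000 UMIs (n = 3). The Wnt4 shares were 32.3%, 35.0% and 52.7%, all above the highest Six2 share of 23.9%. Uncut, Id1 was found in 42.0% ± 2.03, 66.8% ± 11.6 and 68.8% ± 5.52. Each cut was a single random draw. At 3000 UMIs, Id1 was found in 32.0% ± 4.07 of Wnt4 and 33.5% ± 6.71 of Lhx1 cells. In library 3 the uncut Id1 shares were 80.0% of Wnt4 and 63.2% of Lhx1 cells. No order of the Wnt4 and Lhx1 groups was therefore read from the Id1 shares. Id3 was found in 77.8% ± 1.78, 87.2% ± 5.35 and 80.6% ± 1.60 at 5000 UMIs, and in 93.6% ± 0.911, 95.5% ± 3.01 and 96.7% ± 3.23 uncut. Most cells of every group held Id3. The share of cells with 5 or more Id3 UMIs was 15.8% ± 2.996 in the Six2 group and 31.2% ± 7.20 in the Wnt4 group. For Id2 that share was 5.23% ± 0.856 and 25.9% ± 6.54. Id4 was found in 1.72% ± 0.767 of Six2 cells, 6.92% ± 3.56 of Wnt4 cells and 4.53% ± 3.94 of Lhx1 cells, at or near 1 UMI per cell, so no order was read from these shares. Uncut, the Id4 shares were 5.45% ± 2.01, 23.0% ± 8.67 and 19.4% ± 10.5.

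Free RNA in droplets gives UMIs to cells that do not express a gene, so the same shares were taken in the 82 cells with at least 2 UMIs of immune markers. Of the 82, 11 were also in the Six2 group and 1 in the Wnt4 group, while 70 had none of the 3 group markers. The set is therefore not wholly apart from the groups it is set against. The 77 of the 82 that reached 5000 UMIs held Id1 in 2.56% ± 4.44, Id2 in 36.0% ± 12.3 and Id3 in 19.8% ± 10.98 of cells (n = 3). The 82 had an uncut median of 10008.5 UMIs against 14742 in the Six2 group. Id4 was found in 0 of 82 uncut, which allows a share of up to 3.66%. Every library's Six2 share of Id1 and Id3 lay above its immune-marked share. For Id2 the Six2 share was 48.9% against 31.03% in library 1, 50.2% against 50.0% in library 2 and 50.1% against 26.9% in library 3, so it was above the immune-marked share in libraries 1 and 3 and level with it in library 2, which had 22 such cells. Immune cells may carry Id2 transcripts of their own, and this was not tested.

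**Figure D2:**
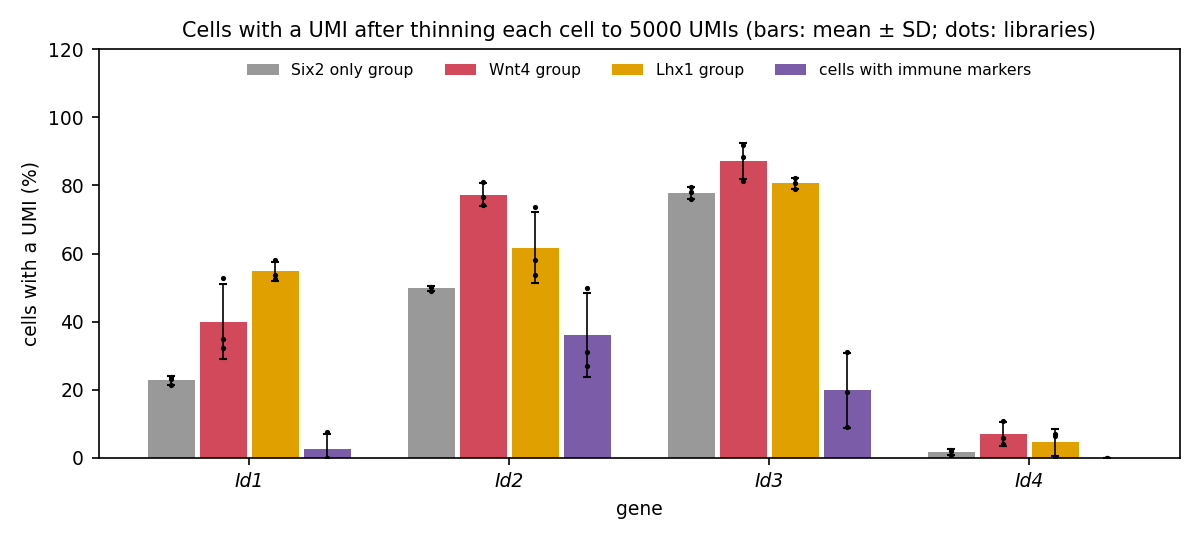
Share of cells (vertical axis, percent) with at least 1 UMI of each Id gene after every cell was cut to 5000 UMIs, as bars of the mean ± SD over the 3 libraries with a dot per library, for the 3 groups and for cells with immune markers. The Wnt4 bars of Id1 (40.0%), Id2 (77.3%) and Id3 (87.2%) stand above the Six2 bars (22.8%, 49.7% and 77.8%).

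The levels were then split by how many UMIs of the marker a cell held. In the Six2 group the Id genes differed little with Six2: Id2 was at 249 ± 11.8 CPM in cells with 1 Six2 UMI, 228 ± 5.10 in cells with 2 and 232 ± 14.3 in cells with 3 or more (n = 3). Id1 was at 82.9 ± 11.1, 79.6 ± 9.34 and 78.3 ± 10.9 CPM over the same split. In the Wnt4 group the levels differed more. Id2 was at 461 ± 122 CPM in cells with 1 Wnt4 UMI, 911 ± 214 with 2 and 872 ± 42.1 with 3 or more. Id1 was at 125 ± 33.7, 198 ± 77.9 and 262 ± 47.4 CPM, and Id3 at 552 ± 101, 808 ± 267 and 929 ± 170 CPM. In each library Id2 was higher in cells with 3 or more Wnt4 UMIs (908, 880 and 826 CPM) than in cells with 1 (331, 573 and 479 CPM). Cells with more Wnt4 UMIs were also deeper, with medians of 16884, 20500 and 24028 UMIs, and these subgroups held 281, 61 and 71 cells, with 7 of the last in library 2. The part of depth in this split was not tested.

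Id4 was at 13.2 ± 7.11, 10.5 ± 2.81 and 27.1 ± 12.03 CPM over the 3 levels of Wnt4. In the Lhx1 group, cells with 2 or more Lhx1 UMIs had Id3 at 509 ± 183 CPM against 713 ± 103 in cells with 1, and Id2 at 345 ± 69.6 against 382 ± 73.8 CPM. These ranges overlapped across libraries. Cells with 2 or more Lhx1 UMIs were deeper, at a median of 23333.5 against 13727 UMIs, and the part of depth was not tested. With a minimum of 2 UMIs for every marker, the Id3 difference from Wnt4 to Lhx1 became -0.70 on the log2 scale (edgeR adjusted p = 1.97e-06), on 132 Wnt4 and 32 Lhx1 cells, the Id1 difference became -0.11 (adjusted p = 0.917) and the Id2 difference -1.28. From Six2 to Wnt4 the same setting gave 1.56 for Id1, 1.93 for Id2, 0.88 for Id3 and 2.42 for Id4, each larger than with 1 UMI.

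**Figure D3:**
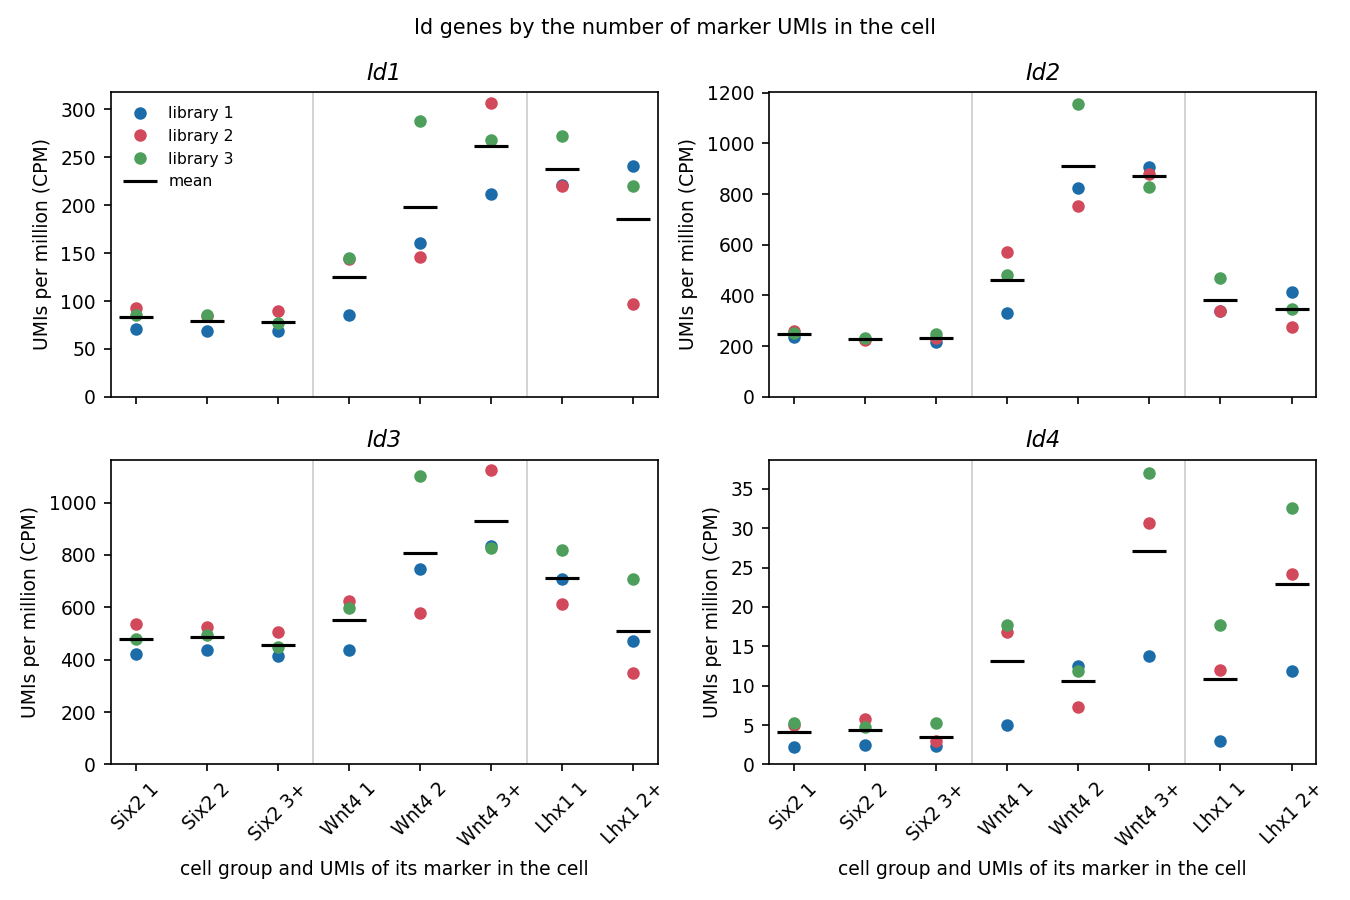
Level of each Id gene in CPM (vertical axis, from 0) in cells split by the number of UMIs of the marker that defines their group (horizontal axis), with a coloured point per library and the mean as a bar. The Six2 points are level, while Id2 goes from 461 to 872 CPM between cells with 1 and with 3 or more Wnt4 UMIs and is at 345 to 382 CPM in the Lhx1 cells.

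Other markers split the groups further. In the Wnt4 group, cells without Cited1, a marker of the least committed progenitors, had Id2 at 690, 901 and 788 CPM against 400, 404 and 635 CPM in cells that still had it, higher in each library. Id1 in these cells was at 206 ± 54.4 against 130 ± 33.4 CPM and Id3 at 813 ± 107 against 544 ± 104 CPM. In the Six2 group the same split gave smaller differences, with Id2 at 255 ± 9.98 against 227 ± 13.8 CPM. Six2 cells with Pax8, a transcription factor of renal commitment, had Id2 at 267, 289 and 301 CPM against 204, 214 and 221 CPM in Six2 cells without it. Those ranges did not overlap, while Id3 did overlap at 461 ± 47.6 against 475 ± 49.5 CPM. Six2 cells with Pax8 were deeper, at a median of 17048 against 14030 UMIs.

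The 79 Lhx1 cells were not alike. The 24 with Wnt4 had Id2 at 489, 604 and 422 CPM (505 ± 91.7), with 11, 3 and 10 cells in the libraries, while the 36 with Six2 but no Wnt4 had Id2 at 158, 214 and 379 CPM (250 ± 115), with 11, 19 and 6 cells. Id4 had 5, 4 and 9 UMIs in the former and 0, 1 and 1 in the latter, too few to compare. The 19 with neither had Id2 at 450, 396 and 321 CPM (389 ± 64.9). Id2 was thus lowest in the Lhx1 cells that also met the rule of the Six2 group in libraries 1 and 2. Depth differed too, with medians of 23650.5 UMIs in the 24 cells, 13381 in the 36 and 13727 in the 19. The part of depth in this split of the Lhx1 cells was not tested. With those 36 cells moved to the Six2 group, Id2 was still lower in the Lhx1 than in the Wnt4 group, by -0.46 on the log2 scale (edgeR adjusted p = 0.000483), and the Id1 step became 0.72 (adjusted p = 0.00109). Cells with none of the 3 markers had Id1 at 89.7 ± 14.1, Id2 at 238 ± 10.1, Id3 at 467 ± 31.4 and Id4 at 3.87 ± 1.84 CPM. Id1 in these cells was at 75.6, 103.8 and 89.8 CPM in libraries 1, 2 and 3, above the Six2 group in each library, and the difference was not tested.

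Markers of the groups and of other cells gave the following picture. Summed over 8 markers of uncommitted progenitors (Six2, Cited1 and 6 others) the groups ranged from 1305 to 1903 CPM in Six2 cells, 908 to 1433 in Wnt4 cells and 659 to 1265 in Lhx1 cells. Summed over 6 committing markers, Wnt4 among them, they ranged from 216 to 276, 414 to 503 and 720 to 1229 CPM, and over 8 early nephron markers, Lhx1 among them, from 4.28 to 6.92, 12.2 to 18.2 and 321 to 372 CPM. Six2, Wnt4 and Lhx1 define the groups, so their part in these sums was fixed by the grouping. Wnt4 was at 0 CPM in the Six2 group and 85.3 to 95.8 CPM in the Wnt4 group. Lhx1 was at 0 CPM in the Six2 and Wnt4 groups and 112 to 174 CPM in the Lhx1 group. Sums without these 3 genes were not taken. The other committing markers did not move alike. Means of Pax8, Tmem100 and Ccnd1 rose from Six2 to Wnt4 to Lhx1 cells. Fgf8 was at 52.7, 51.6 and 89.0 CPM in these groups, and Bmper at 26.4, 52.1 and 25.7 CPM. Ccnd1 alone was at 352, 436 and 738 CPM in the Lhx1 group of libraries 1, 2 and 3. The 8 ureteric markers ranged from 60.3 to 81.8 CPM in the Six2 group, 51.6 to 63.5 in the Wnt4 group and 100 to 377 in the Lhx1 group, highest in library 2. The 6 immune markers ranged from 1.48 to 9.52, 1.24 to 53.6 and 0 to 7.23 CPM, with Ptprc at 0 in the Wnt4 group. The 6 stromal markers ranged from 99.1 to 129, 76.9 to 105 and 58.0 to 158 CPM. The 4 endothelial markers stayed at or below 3.10 CPM and the 6 erythroid genes at or below 4.67 CPM in every group. With the cells marked as immune, ureteric or rich in haemoglobin left out, all 12 Id comparisons kept their direction and their side of the threshold. Cells were marked as ureteric by at least 2 UMIs of Calb1, Gata3, Ret, Wnt11 and Wnt9b together. Hoxb7, Krt18 and Krt8, also in the ureteric sum, were not used for this. Only 4 of the 79 Lhx1 cells were left out.

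Over single cells the Id genes varied together. Pearson's r was taken on log(1 + UMIs per 10000) within each library, as a description of cells that share a library, its depth and its free RNA. In the Six2 group r was 0.413, 0.410 and 0.475 between Id2 and Id3, 0.370, 0.366 and 0.445 between Id1 and Id2, and 0.398, 0.384 and 0.405 between Id1 and Id3, over 2173, 2157 and 1681 cells. In the Wnt4 group the same pairs had means of 0.646 (0.632 to 0.670), 0.565 (0.464 to 0.628) and 0.579 (0.560 to 0.603), over 200, 103 and 110 cells. For these 3 pairs each Wnt4 value lay above each Six2 value, in a group with higher levels of all 3 genes. Pairs with Id4 had means of 0.139 (Id1), 0.148 (Id2) and 0.0949 (Id3) in the Six2 group and 0.289, 0.326 and 0.241 in the Wnt4 group.

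In the Lhx1 group r was taken only in library 1, whose 31 cells passed the minimum of 30, and was 0.599 for Id1 and Id2, 0.486 for Id1 and Id3 and 0.480 for Id2 and Id3. At 5000 UMIs per cell the 3 pairs had means of 0.303 (Id2 and Id3), 0.269 (Id1 and Id2) and 0.254 (Id1 and Id3) in the Six2 group and 0.481, 0.369 and 0.383 in the Wnt4 group. The order between groups was the same at this depth, although for Id1 and Id2 the ranges of the groups overlapped (0.246 to 0.305 against 0.291 to 0.450). With the depth of the cell, the log values had mean r of 0.110 for Id1, 0.141 for Id2, 0.0543 for Id3 and 0.0689 for Id4 in the Six2 group. In the Wnt4 group these were higher, at 0.149, 0.181, 0.150 and 0.140, and reached 0.275 for Id1 in library 1. The part of depth in the uncut correlations was not tested beyond the values at 5000 UMIs. Cutting made depth equal but not the Id counts. Id2 had means of 1.06, 1.19 and 1.17 UMIs per cut Six2 cell in libraries 1, 2 and 3. Per cut Wnt4 cell these means were 2.69, 3.03 and 3.42. The parts of the Id counts, and of unlike cells joined in the Wnt4 group, in r were not tested. No closer link of the Id genes in Wnt4 cells was therefore read.

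**Figure D4:**
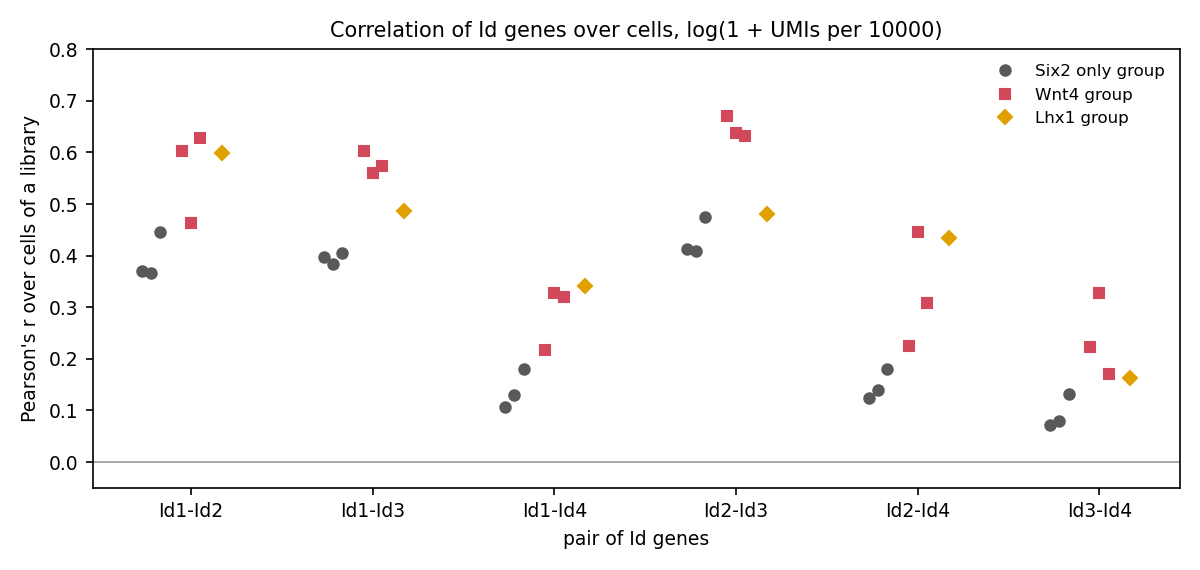
Pearson's r over the cells of a library (vertical axis) for each pair of Id genes (horizontal axis) on log(1 + UMIs per 10000), with a point per library for the Six2 and Wnt4 groups and 1 point, library 1, for the Lhx1 group. For Id2 and Id3 the Wnt4 points lie at 0.632 to 0.670 and the Six2 points at 0.410 to 0.475.

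At 5000 UMIs, cells that held Id1 more often held Id2 in both the Six2 and the Wnt4 group. Among Six2 cells with Id1, 66.8% ± 3.18 also had Id2, against 44.7% ± 0.711 of those without Id1 (n = 3). Among Wnt4 cells these shares were 87.8% ± 3.09 and 69.8% ± 1.58. All 4 Id genes were found in 0.421% ± 0.236 of Six2 cells and 4.26% ± 1.95 of Wnt4 cells, and none of the 4 in 13.4% ± 1.08 and 6.04% ± 3.002. What these shares would be if the genes were found independently was not computed. No difference in pairing between the groups was therefore read from them. Counts of Id1, Id2 and Id3 scattered more than sampling alone gives: in the Six2 group the variance over the mean was 2.37 ± 0.323 for Id1, 2.62 ± 0.225 for Id2 and 2.32 ± 0.201 for Id3, where sampling alone gives 1. For Id4 it was 1.04 ± 0.0563, at means of 0.00836, 0.0226 and 0.0227 UMIs per cell. At means this low the ratio says little about scatter, so none was read for Id4.

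Of 10175 genes found in at least 5% of Six2 cells, those most like each Id gene by mean within-library r were other Id genes. For Id1 they were Id3 (0.396), Id2 (0.394) and Id4 (0.139), and for Id2 they were Id3 (0.433), Id1 (0.394) and Mycn (0.183), a growth-promoting Myc factor. For Id3 they were Id2, Id1 and Smad7 (0.107), an inhibitory Smad. For Id4 they were Id2 (0.148), Id1 (0.139) and H19 (0.0977), an imprinted non-coding RNA. The lowest r was with Mest, an imprinted gene, for Id1 (-0.114) and Id2 (-0.247), with Npm3 for Id3 (-0.0777) and with Cdkn1c, a cell cycle inhibitor, for Id4 (-0.110). Values near 0.1 in counts this sparse are weak.

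The E proteins are the partners of the Id proteins. Their genes Tcf3, Tcf4 and Tcf12 were all tested and none passed between the Wnt4 and Six2 groups, with log2 differences of -0.02, -0.18 and 0.05 (edgeR adjusted p = 0.842, 0.0517 and 0.682). Tcf3 was at 297 ± 51.1 CPM in the Six2 group, 296 ± 59.6 in the Wnt4 group and 298 ± 45.9 in the Lhx1 group (n = 3). Tcf4 was at 180 ± 14.51, 158 ± 10.2 and 155 ± 43.9 CPM, and Tcf12 at 89.2 ± 15.7, 92.4 ± 13.1 and 82.9 ± 24.3 CPM. None of the 3 passed in the other comparisons either. With 10.2% of all genes called between the Wnt4 and Six2 groups, 0 of 3 is close to the background and is no result about the E proteins.

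Of 39 other bHLH genes listed, 17 had enough counts to be tested, and 1 was higher and 4 were lower in the Wnt4 than in the Six2 group, where 4.86% of all genes were higher and 5.34% lower. The list leaves out Atoh8 and Hey1, bHLH genes counted with the BMP targets below. Mycn was higher, at 100, 131 and 120 CPM against 47.0, 71.8 and 54.5 CPM (log2 1.04, SE 0.074, edgeR adjusted p = 2.97e-09), and its ranges did not overlap. Hes6 (-0.38), Tcf21 (-0.37), which marks stroma and podocytes, and Mxd4 (-0.32), a Max partner opposing Myc, were lower. The fourth lower gene was Hes1, a Notch target (-0.30, adjusted p = 0.00414), named after its value was seen. The other 12 did not pass, and the list's median was -0.15 against -0.01 for all genes tested.

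Upstream in the pathway, the BMP ligand genes moved in both directions. Of 10 listed, 4 were tested, and 1 was higher and 1 lower in Wnt4 than in Six2 cells, against the same all-gene shares of 4.86% and 5.34%. Bmp2 was at 2.47, 4.10 and 1.78 CPM in the Six2 group, 8.88, 9.92 and 9.50 CPM in the Wnt4 group and 33.0, 64.2 and 98.8 CPM in the Lhx1 group, with no overlap between groups. Its log2 difference was 1.84 from Six2 to Wnt4 (SE 0.32, edgeR adjusted p = 0.000414) and 2.64 from Wnt4 to Lhx1 (SE 0.35, adjusted p = 4.61e-05). Bmp7, a ligand that sustains nephron progenitors, was lower in the Wnt4 group, at 109, 137 and 97.4 CPM against 136, 195 and 157 CPM (log2 -0.49, SE 0.067, adjusted p = 2.73e-05). Bmp4 did not pass from Six2 to Wnt4 (-0.42, adjusted p = 0.095), and Gdf11 did not either.

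None of the 5 BMP receptor genes tested and none of the 3 BMP Smads tested passed between the Wnt4 and Six2 groups, with medians of -0.10 and -0.05 on the log2 scale. Bmpr1a, a type I BMP receptor, was at 46.9 ± 7.54 CPM in the Six2 and 46.8 ± 11.1 CPM in the Wnt4 group, and Smad4, the shared partner of receptor Smads, at 27.3 ± 0.897 and 26.8 ± 2.10 CPM (n = 3). None of the 5 tested genes of the TGF-beta branch passed. Where 10.2% of all genes are called, counts of 0 in lists this short lie close to the background and are no result about these genes.

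Among 9 tested modulators and inhibitory Smads, 3 were higher and 1 was lower in Wnt4 cells, where 4.86% of all genes were higher and 5.34% lower. Bambi, a decoy receptor, was at 19.6, 25.8 and 16.5 CPM against 8.34, 12.1 and 9.72 CPM (log2 1.05, SE 0.16, edgeR adjusted p = 9.09e-05). Bmper, a secreted BMP-binding protein, was at 43.9, 66.2 and 46.2 CPM against 22.02, 31.7 and 25.5 CPM (log2 0.97, adjusted p = 1.22e-07), and Smad7 at 35.5, 41.0 and 44.2 CPM against 25.1, 30.4 and 28.7 CPM (0.52, adjusted p = 0.0007). Nbl1, a secreted BMP antagonist of the DAN family, was lower, at 46.3, 62.2 and 37.2 CPM against 70.6, 91.9 and 74.98 CPM (-0.72, adjusted p = 4.29e-06).

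All 3 tested genes of 10 other BMP targets listed were higher in Wnt4 than in Six2 cells, where 4.86% of all genes were higher. Tmem100, a BMP-induced membrane protein, was at 21.5, 30.4 and 33.9 CPM against 6.65, 6.36 and 5.92 CPM (log2 2.10, SE 0.18, edgeR adjusted p = 3.27e-08). Atoh8, also a bHLH gene, was at 3.97, 4.63 and 4.54 CPM against 1.502, 1.94 and 1.25 CPM (1.48, adjusted p = 0.00635), and Hey1, a bHLH gene that is also a Notch target, at 42.6 ± 12.9 against 30.8 ± 10.0 CPM (0.44, adjusted p = 0.0285). Tmem100 and Bmper are also on the committing marker list. All the lists were drawn up with earlier results of these data known, so the directions and counts called are not independent evidence. The other 7 listed had too few counts.

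From the Wnt4 to the Lhx1 group, where 1.15% of all genes passed, the calls were 2 of 4 BMP ligands, 2 of 9 modulators, 1 of 3 BMP targets and 1 of 17 bHLH genes, named here after their values were seen. The receptor, Smad, E protein and TGF-beta lists had none. Bmp2 and Bmp4 (1.63) were higher, Bambi was higher (1.01) and Bmper lower (-1.01), Hey1 was higher (1.27), and of the bHLH genes Heyl, a Notch target, was higher (1.12). Bmper was lower alongside Id2, at 21.1, 29.4 and 26.5 CPM in the Lhx1 group, below its Wnt4 range (edgeR adjusted p = 0.00987). Smad7 was at 21.1, 26.7 and 28.9 CPM in the Lhx1 group and did not pass there (-0.68, adjusted p = 0.202).

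**Figure D5:**
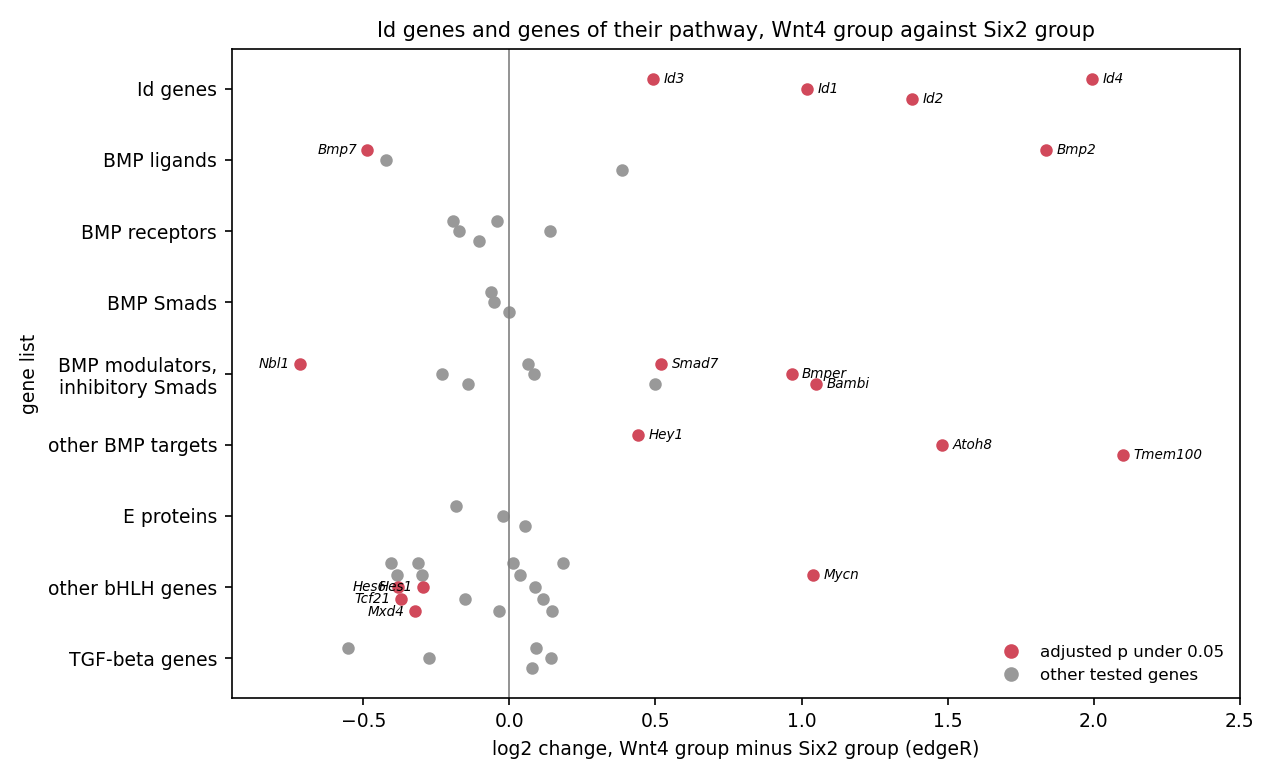
Log2 difference between the Wnt4 and Six2 groups (horizontal axis, edgeR) for each tested gene of the Id family and of 8 lists of their pathway (vertical axis), red where the adjusted p is under 0.05. The Id genes lie at 0.49 to 1.99, the 3 tested BMP targets at 0.44 to 2.10, and no E protein, BMP receptor or BMP Smad is red.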

How the data were processed

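Cells came from 3 libraries of sorted E14.5 Six2GFP+ kidney cells. The authors deposited raw UMI counts per gene and cell, made with Cell Ranger 1.3.1 on mm10 per the submitters' processing notes. The aligner settings and any filter before deposit are not given in the sources used here, and per the labels' protocols a size gate in the sort was meant to leave out doublets. The members and all gene lists were chosen with earlier results of these data known.

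Cells with at least 1000 genes and at most 10% mitochondrial counts were kept. No doublets were removed in the main results. As an alternative, the 6% of cells with the highest scores against simulated doublets were left out. Counts were summed per library and group (9 sums, from 19 to 2173 cells each) and fitted in edgeR 4.0.16 (R 4.3.3, TMM scaling, filterByExpr, quasi-likelihood test) with the library as a block, since the groups of a library share its tube, and Benjamini-Hochberg adjustment at 0.05. DESeq2 1.42.0 was an alternative. On simulated counts for the Wnt4 against Six2 comparison (10157 genes) the fit recovered 85.7% of genes changed by a log2 of 1 and 40.4% of those changed by 0.5, and called 0.131% of unchanged genes. The simulated scatter was set by hand, equal for all genes and sums, and the library effects were shared by all groups. These rates describe that simulation and need not hold for the scatter of the real counts. Shares of cells were taken after cutting cells to 5000 UMIs, leaving out 56 Six2, 2 Wnt4 and 1 Lhx1 cells that were shallower.

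The genes named are the 4 Id genes, the group markers, up to 3 called increases and 3 called decreases per list for Wnt4 against Six2, and the 3 genes most like each Id gene. Genes with the lowest r and list members that did not pass were named after their values were seen. Intervals and limits from counts cover counting error only. Python 3.11.15 with numpy 2.4.6 and scipy 1.17.1 did the rest. Protein sequences were not used here.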

Additional observations from a re-analysis of the deposited data

How the results depend on the processing

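Each comparison was refitted under 16 other settings. Id4 had too few counts for a value in cells of 10000 to 20000 UMIs, in cells cut to 5000 UMIs and in the low-proliferation cells, a setting added after seeing the data. Of the 12 Id differences, Id2 from Six2 to Wnt4 (1.08 to 1.93) and Id1 from Six2 to Lhx1 (0.95 to 1.74) passed in every setting run, without the block included. Scaling by DESeq2's size factors and the DESeq2 test moved no Id call.

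Without the replicate block, which stands for the shared tubes, 7 of the 9 that passed no longer did: Id1 (1.04), Id3 (0.50) and Id4 (1.98) from Six2 to Wnt4, Id2 (-0.75) from Wnt4 to Lhx1, and Id2 (0.64), Id3 (0.41) and Id4 (1.99) from Six2 to Lhx1. In low-proliferation cells Id1 (0.45) and Id3 (0.21) from Six2 to Wnt4 and Id2 (0.36) and Id3 (0.39) from Six2 to Lhx1 did not pass, Id1 from Wnt4 to Lhx1 did (1.19), and Id3 there changed sign (0.17). Id2 from Six2 to Lhx1 was -0.031 in the depth window and did not pass at 5000 UMIs (0.50). Id3 from Six2 to Lhx1 also failed in the depth window (0.21), with 2 UMIs per marker (0.18) and at 5000 UMIs (0.25). Id1 from Wnt4 to Lhx1 passed with no low-count filter (0.45), without the highest doublet scores (0.53), with barcodes of fewer than 10 A and T bases (0.58) and with the 36 overlapping cells moved (0.72), and changed sign with 2 UMIs per marker (-0.11). That setting gave larger differences from Six2 to Wnt4, of 1.56 for Id1 and 0.88 for Id3. From Wnt4 to Lhx1, Id3 was at -0.70 with 2 UMIs per marker and 0.030 with the cells moved.

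Leaving out 1 library, Id1 from Wnt4 to Lhx1 ranged from 0.19 to 0.64 and passed without library 2 or 3. Id3 from Six2 to Lhx1 ranged from 0.27 to 0.54 and failed without library 1 or 3. Id4 from Six2 to Lhx1 ranged from 1.83 to 2.18 and failed without library 3, and from Wnt4 to Lhx1 it ranged from -0.069 to 0.11, below 0 without library 3.

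Genes called from Six2 to Wnt4 (1045) were 390 with DESeq2, 86 without the block, 390 in the depth window, 170 at 5000 UMIs, 54 at low proliferation and 269 to 1211 leaving out a library (269 without library 1, 364 without library 3). From Wnt4 to Lhx1 (118) they were 259 unfiltered, 69 without the block, 39 in the depth window, 356 with the cells moved, 12 at 5000 UMIs, 4 at low proliferation and 35 to 162 (35 without library 1). From Six2 to Lhx1 (529) they were 822, 190, 25, 949, 83 and 7 in the same order, and 118 to 759 (118 without library 1, 291 without library 3). Unthinned cells moved all 12 shares of cells, and thinning moved 11 of 12 mean correlations by more than the spread between libraries. The causes were not tested. What the Lhx1 sums, of 19 to 31 cells, could detect was not simulated.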
